A study of Mus musculus with 4 samples.

Results

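Horizontal basal cells are the flat keratin-positive cells that lie on the basement membrane of the olfactory epithelium, and they were described here in single-cell RNA data from the whole main olfactory epithelium of the mouse. A cell barcode was counted as a horizontal basal cell when it held at least 500 detected genes, at most 10% mitochondrial UMIs, at least 5 UMIs of Krt5, at least 1 of Trp63, at most 15 of Omp and at most 30 of Cyp2g1. Each UMI, a random tag added at capture, stands for 1 molecule of RNA. The members were thus chosen by their own counts of Krt5, Trp63, Omp and Cyp2g1. Of 39715 barcodes that passed the gene and mitochondrial limits, 1209 (3.04%) met the rule. The samples were 4 droplet libraries, 2 from female and 2 from male wild-type C57BL/6J mice aged 3 months, and all 4 had the same genotype and no treatment. The epithelium had been dissected, dissociated with papain and DNase, strained, and captured with a 5′ gene expression kit. The labels do not say whether a library came from 1 animal or from several, so the p-values below measure only the spread between libraries.

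In adult olfactory epithelium these cells are a reserve stem cell population. They divide rarely while the tissue is intact, they are attached to the basement membrane through hemidesmosomes, and after severe injury they can rebuild neurons and supporting cells. Trp63, which encodes the transcription factor p63, is known to hold them in the resting state, while the globose basal cells above them carry the routine replacement of neurons. Omp marks mature olfactory neurons and Cyp2g1 marks sustentacular cells, the glia-like supporting cells of the epithelium.

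The stretches of promoter in front of Krt5 and Icam1 are shown because the first gene defined the cells and the second is a marker that the rule did not use. Each line gives the 250 bases before the RefSeq transcription start on the gene's own strand (GRCm38.p6), 5′ to 3′. Capitals mark CACCC or its reverse complement GGGTG, the core letters of Krüppel-like factor sites. The Krt5 window is chr15:101712906-101713155 on the minus strand and the Icam1 window is chr9:21015690-21015939 on the plus strand.
Krt5: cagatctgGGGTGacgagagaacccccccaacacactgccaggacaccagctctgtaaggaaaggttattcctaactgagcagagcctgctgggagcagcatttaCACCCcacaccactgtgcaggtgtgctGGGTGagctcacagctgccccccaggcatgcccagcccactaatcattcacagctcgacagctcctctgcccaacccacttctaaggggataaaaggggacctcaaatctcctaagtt
Icam1: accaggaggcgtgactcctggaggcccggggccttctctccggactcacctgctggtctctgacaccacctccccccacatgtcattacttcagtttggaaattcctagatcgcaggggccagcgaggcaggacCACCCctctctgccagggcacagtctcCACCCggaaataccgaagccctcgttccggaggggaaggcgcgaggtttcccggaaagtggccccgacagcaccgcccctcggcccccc
The Krt5 window held 3 matches and the Icam1 window held 2. Among the 25 genes that led the horizontal basal profile, 18 had an entry in the RefSeq promoter table, with 21 windows. CACCC, searched on both strands, was in 17 of these 21 windows (81.0%) and in 52.0% of all 32851 windows of that length. The other motifs searched, also on both strands, were TATAAA (2 of 21, against 12.4% of all windows), the AP-1 motif TGANTCA (2 of 21, against 6.75%), the AP-2 motif GCCNNNGGC (3 of 21, against 13.7%) and the spaced core motif of the p53 family (15 of 21, against 63.5%). The start of 5 of the 21 windows lay more than 200 bases from the GENCODE gene start. A match describes letters in the window and is not a measured binding site.

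The 4 libraries held 10256 to 10777 barcodes each, and the horizontal basal cells of a library held 2191203 to 3838595 UMIs. The median horizontal basal cell had 7926 to 8623 UMIs and 2908 to 3110 detected genes, with 2.25 to 2.62% mitochondrial UMIs, and the median of the other passing barcodes was 8700 to 9578 UMIs. Pairs of libraries shared 136 to 172 barcode sequences. A score against simulated doublets marked 2.89% of horizontal basal cells and 8.56% of the other barcodes. Among other barcodes within the Omp and Cyp2g1 caps, which the horizontal basal cells also had to meet, it marked 1.17% (143 of 12183). The number marked per library was set in advance from its barcode count. Female 2 and male 2 stood apart from female 1 and male 1 in interferon and antigen presentation genes. Values for horizontal basal cells, and for Cd74 also in other barcodes, are below.

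Female 1 gave 415 horizontal basal cells (4.06% of its passing barcodes, exact binomial 95% interval 3.69 to 4.46%), female 2 gave 245 (2.51%), male 1 gave 262 (2.71%) and male 2 gave 287 (2.85%). Female 1 was the library with the largest share, and the other 3 lay within a narrow band. Females had a mean share of 3.29% ± 1.10 (SD, n = 2), and the male mean was 2.78% ± 0.0983 (SD, n = 2). The groups overlapped (exact two-sided permutation test over libraries, p = 1, where 0.333 is the smallest p that 2 against 2 allows). The male share was 0.504 percentage points below the female share with all libraries and 0.271 above it without female 1. Intervals on shares cover counting error only.

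Krt5 separated the barcodes widely. No Krt5 UMI was found in 37801 passing barcodes, 454 held 1 to 4, and 1460 held at least 5. Of these 1460, the rule left out 96 for lack of Trp63 alone and, among those with Trp63, 76 for Omp alone, 56 for Cyp2g1 alone and 11 for both caps. The few others lacked Trp63 and were over a cap. The median horizontal basal cell held 23 to 29 Krt5 UMIs, depending on the library. Just inside the Krt5 limit were 61 members with 5 to 9 UMIs, and just outside were 29 barcodes with 1 to 4 UMIs that met every other limit. The summed Krt14 level was 652 to 1804 CPM just inside and 275 to 2151 CPM just outside, and median depth was 4190 to 6697 and 1192 to 2973 UMIs. The barcodes left out for Omp were deep, with medians of 15289 to 19613.5 UMIs.

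Levels are given in CPM, the UMIs of a gene per 1000000 UMIs, both summed over the barcodes of a set in a library. Means are over the 4 libraries with the SD (n = 4). Folds are the mean over libraries of log2 ratios with 1 CPM added to both sides, returned to the linear scale. The rule chose the cells by measured genes, so the comparison with other barcodes is a description without a test. A gene is called higher or lower here when the ratio was at least 2-fold in the same direction in all 4 libraries. Of 11601 genes with a mean of at least 5 CPM, 1338 were higher (11.5%) and 2269 were lower (19.6%), and the median gene had a log2 ratio of -0.40.

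The marker genes that the rule did not use, Krt14 and Icam1, were on the horizontal basal side. Genes listed as candidates of respiratory basal cells were also higher, with values below, so these markers do not settle the label against such cells. Krt14, the keratin that pairs with Krt5 in basal layers (ENSMUSG00000045545, chr11:100203162-100207548, minus strand), was at 2380, 2103, 2155 and 1917 CPM in female 1, female 2, male 1 and male 2. In the other barcodes it was at 11.3 ± 2.26 CPM, a 176-fold difference, and the 2 sets of libraries did not overlap. Icam1, a cell surface adhesion molecule (ENSMUSG00000037405, chr9:21015985-21028817, plus strand), was at 893, 949, 833 and 899 CPM against 11.8 ± 2.23, a 70.8-fold difference. The genes of the rule itself were at 3486, 3433, 3340 and 3178 CPM for Krt5 (ENSMUSG00000061527, chr15:101707070-101712898, minus strand; 204-fold) and at 596, 591, 575 and 568 CPM for Trp63 (ENSMUSG00000022510, chr16:25683763-25892102, plus strand; 185-fold). Krt14 was detected in 95.8 to 98.8% of horizontal basal cells per library, and in 0.667 to 1.32% of barcodes with more than 15 Omp UMIs, called the mature neuron gate, whose median depth was 8626.5 to 9522 UMIs.

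**Figure D1:**
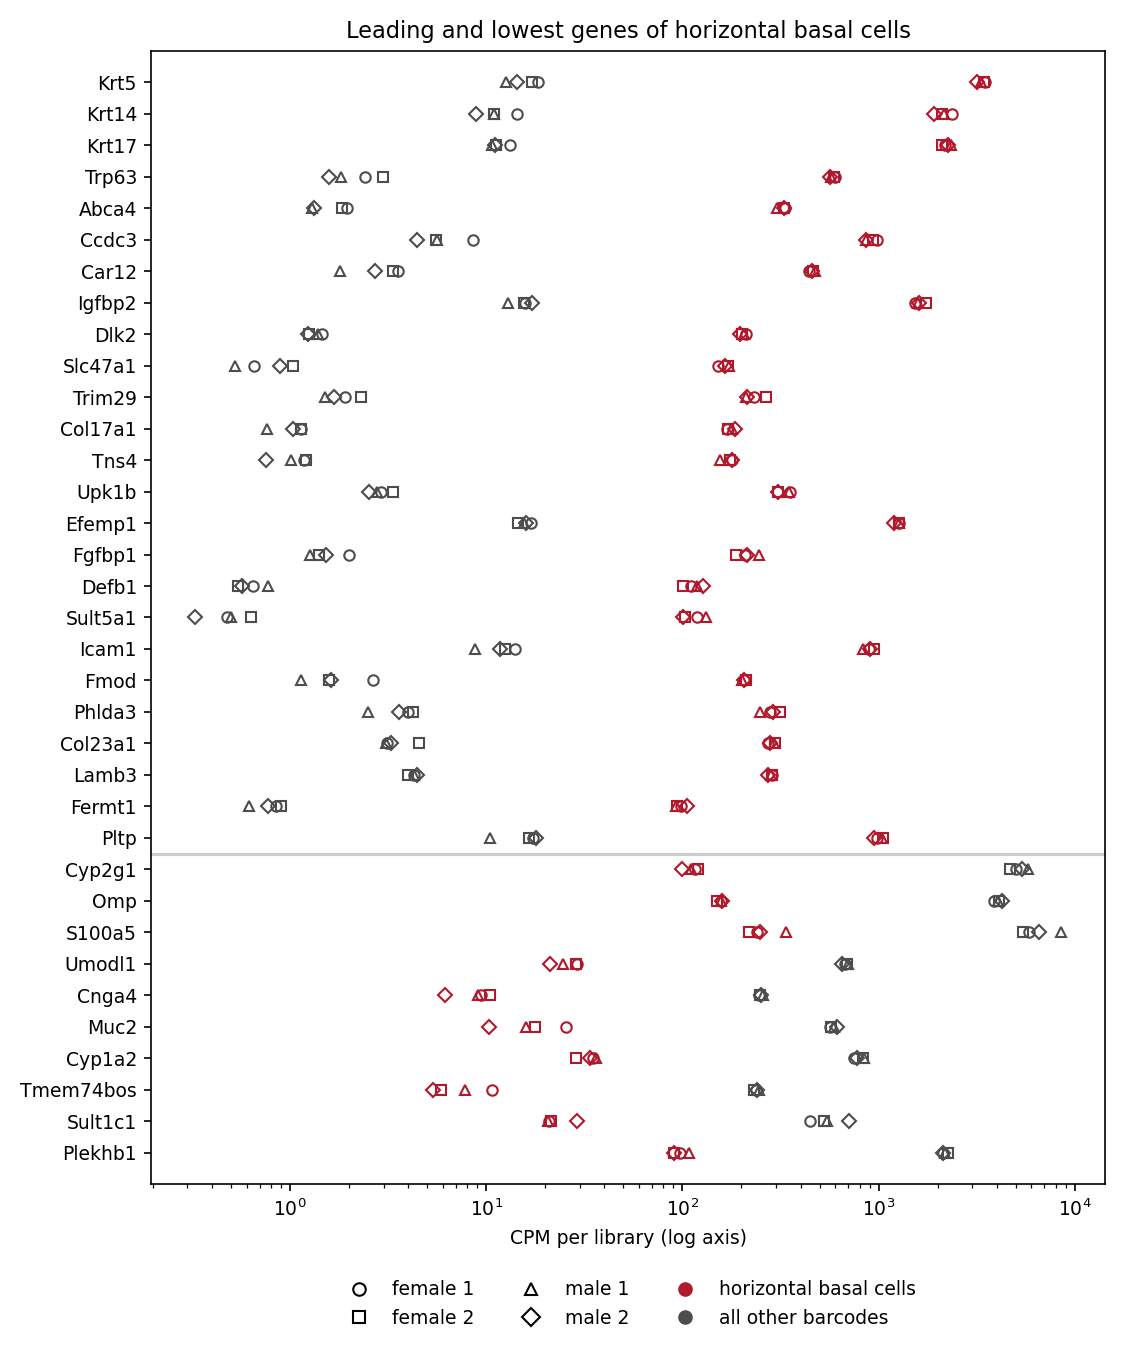
Level in CPM (log axis) of the 25 leading genes, above the grey line, and the 10 lowest genes, below it, in horizontal basal cells (red) and all other passing barcodes (grey), with 1 symbol per library. Krt5 sits between 3178 and 3486 CPM in the 4 horizontal basal sums, and the red and grey symbols of a gene are apart because the genes were picked for that.

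The other leading genes included keratin, matrix, transporter and secreted protein genes. Krt17, a keratin of stratified and basal epithelia (chr11:100256217-100261029, minus strand), was at 2192, 2115, 2343 and 2255 CPM against 11.6 ± 1.11, 177-fold higher. Igfbp2, an insulin-like growth factor binding protein (chr1:72824503-72852474, plus strand), was at 1538, 1747, 1584 and 1614 CPM, 99.6-fold higher. The secreted protein gene Ccdc3 was 133-fold higher (914 ± 59.4 CPM) and the membrane carbonic anhydrase gene Car12 was 121-fold higher (459 ± 13.4 CPM). Abca4, a lipid transporter best known from photoreceptors, was at 335, 330, 303 and 330 CPM against 1.60 ± 0.34 in other barcodes. The SD over libraries was small beside these differences for each of these genes. Others of the 25 were the Delta-like family gene Dlk2 (87.7-fold), the organic cation exporter Slc47a1 (93.8-fold), the tripartite motif gene Trim29 (81.9-fold), the focal adhesion gene Tns4 (85.3-fold), the matrix genes Efemp1 (74.9-fold) and Fmod (76.8-fold), and the beta-defensin Defb1 (70.4-fold). Further members of the 25 were the uroplakin Upk1b (330 ± 25.7 CPM), the kindlin gene Fermt1, which activates integrins (97.6 ± 5.91 CPM), the FGF-binding Fgfbp1 (213 ± 23.7 CPM), the collagen Col23a1 (286 ± 11.5 CPM) and the phospholipid transfer protein Pltp (61.8-fold).

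Genes of the attachment to the basement membrane were on the horizontal basal side. Of 16 hemidesmosome and basement membrane genes, 13 were higher and none was lower, with a median log2 ratio of 2.84 over the 13 that passed the level filter. Itga2, Col4a6 and Nid1 did not pass it. Col17a1, the transmembrane collagen of hemidesmosomes, was at 169, 170, 178 and 186 CPM against 1.02 ± 0.18 in other barcodes (87.8-fold). Itgb4, the integrin that pairs with Itga6 in hemidesmosomes, was at 305, 335, 351 and 370 CPM (44.6-fold). No library of other barcodes came near these levels. Laminin chains of epithelial basement membranes were also higher: Lamb3 was at 283 ± 6.54 CPM (54.2-fold) and Lama3 was 17.6-fold higher. Itga6 was 8.49-fold higher, while the broadly used Itgb1 and Dst were 3.28-fold higher each.

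Of 15 desmosome and junction genes, 9 were higher and 1 was lower. The plakophilin of stratified epithelia, Pkp1, was at 73.1 ± 8.79 CPM, 37.3-fold higher, whereas Pkp2, that of simple epithelia and heart, was at 20.6 ± 3.11 CPM, 2.38-fold lower. Desmoplakin (Dsp) was at 764, 738, 702 and 723 CPM, 7.44-fold higher, P-cadherin (Cdh3) was 13.1-fold higher and the desmocollin Dsc3 9.54-fold. Connexin 43 (Gja1) was 9.66-fold higher. E-cadherin (Cdh1) and plakoglobin (Jup) had ratios of 1.15 and 0.79 and were called in neither direction, and Gjb2 also missed the call. Dsg3 and Cldn1 did not pass the filter.

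Of 8 keratins, 6 were higher, among them Krt5, which the rule required. Krt8 (538 ± 60.2 CPM, log2 ratio -0.10) and its partner Krt18 (log2 ratio 0.29), both keratins of simple epithelia, were called in neither direction. Krt8 was at 1401 CPM in the sustentacular gate, the barcodes with more than 30 Cyp2g1 UMIs and at most 15 of Omp. Krt19 and Krt7 are also used by simple epithelia: Krt19 was at 703, 676, 698 and 620 CPM, 17.0-fold higher, and Krt7 was 12.2-fold higher. Krt15, a keratin of basal cells in skin and hair follicles, was uneven between libraries, at 290, 180, 126 and 394 CPM, and was 42.3-fold higher.

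**Figure D2:**
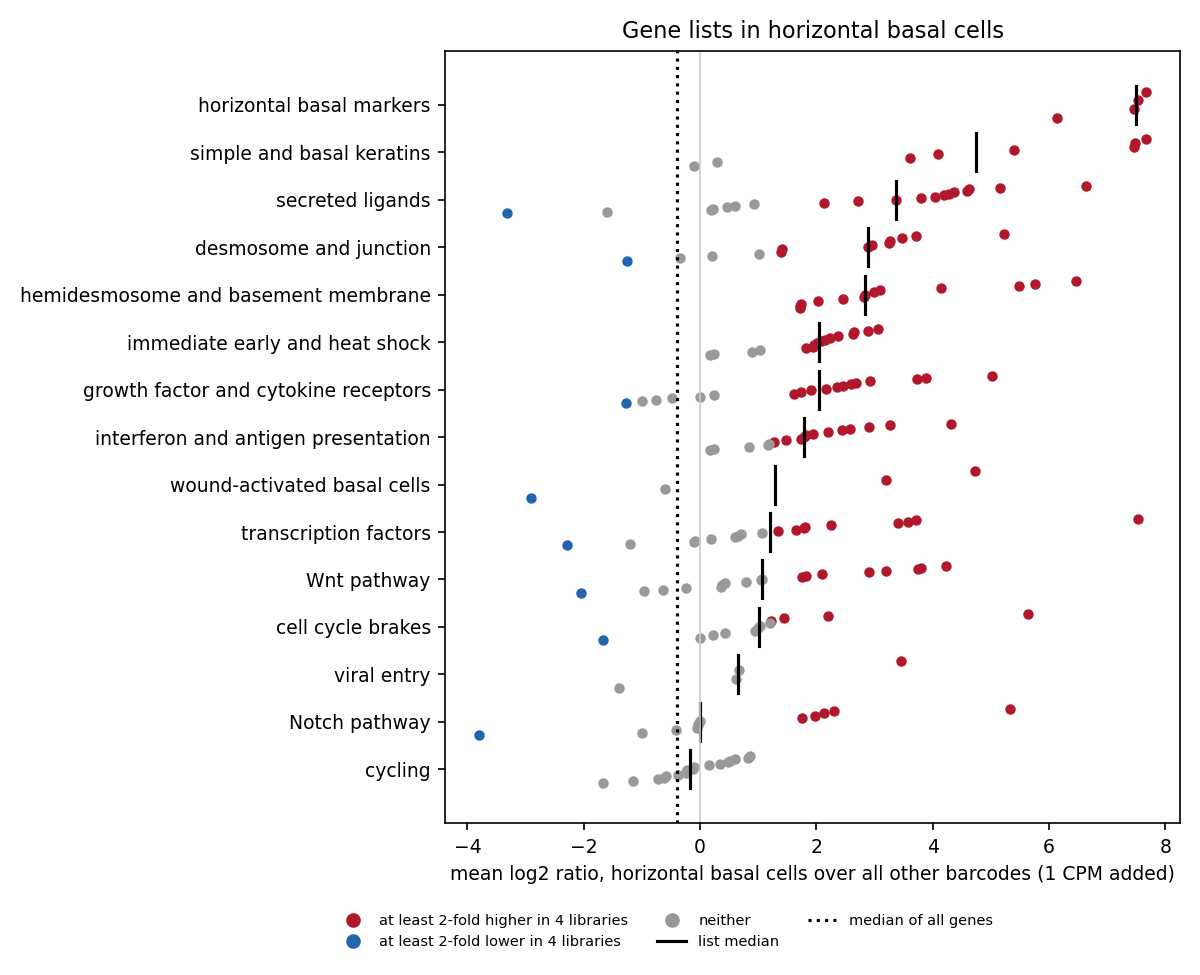
Log2 ratio of horizontal basal cells to other barcodes for each member of the gene lists (mean over 4 libraries, 1 CPM added), 1 point per gene in rows by list, with members past the level filter shown and coloured by whether they were called higher, lower or neither. Short vertical lines mark list medians, such as 2.84 for the hemidesmosome and basement membrane genes and -0.17 for the cycling genes, and the dotted line marks the median of all genes, -0.40.

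Of 20 transcription factors, 9 were higher, among them Trp63, which the rule required, and 1 was lower. Klf4, a Krüppel-like factor of epithelial differentiation, was at 1272, 1298, 1371 and 1321 CPM, 11.9-fold higher than in other barcodes and 6.41-fold higher than in the sustentacular gate. Sox9 was at 276 ± 28.5 CPM (10.6-fold), the AP-2 factor Tfap2a at 17.3 ± 2.54 CPM (13.1-fold), Klf5 at 442 ± 25.9 CPM (3.16-fold), and Ets2, Grhl2 and Id3 were 4.76-, 3.49- and 3.43-fold higher. These levels were alike across the libraries. Hopx, a homeodomain-only cofactor, was 4.91-fold lower, at 5.82 ± 2.13 CPM. Sox2, Pax6, Otx2 and Meis1, factors of the olfactory lineage more widely, were called in neither direction.

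In the Notch pathway, 2 ligands and 1 receptor were on the horizontal basal side and another receptor was on the sustentacular side. Of 14 genes, 5 were higher and 1 was lower, and the median log2 ratio was -0.00. The ligand Dll1 was at 157, 132, 156 and 129 CPM, 40.3-fold higher than in other barcodes, where it was at 2.62 ± 0.64 CPM. The ligand Jag2 was at 110 ± 2.43 CPM (3.92-fold), and the receptor Notch1 at 93.5, 104, 91.3 and 97.3 CPM (4.95-fold), above the 37.6 ± 3.01 CPM of the sustentacular gate. The Notch target Hes1 was 3.35-fold higher (254 ± 27.4 CPM), and the modifier Lfng was 4.38-fold higher (25.2 CPM). The receptor Notch3 was at 2.61, 0, 0.913 and 3.30 CPM against 84.1 ± 3.67 CPM in the sustentacular gate. The target Hey1 was at 264 CPM in horizontal basal cells, 266 in other barcodes and 710 in the sustentacular gate.

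Receptors for growth factors and cytokines were mostly higher, with 12 of 18 higher and 1 lower. The nerve growth factor receptor Ngfr was at 51.8, 52.3, 50.2 and 42.9 CPM (32.4-fold), and Egfr was at 179, 183, 169 and 179 CPM (7.60-fold). Fgfr2 was at 116 ± 11.4 CPM (14.9-fold), and the other FGF receptors higher were Fgfr3 (13.2-fold) and Fgfr1 (3.05-fold). Cytokine and hormone receptors were higher as well, among them the growth hormone receptor Ghr (6.43-fold), Tgfbr2 (6.05-fold), Il6ra (5.46-fold), the interleukin-1 receptor Il1r1 (5.12-fold) and the oncostatin M receptor Osmr (3.74-fold). Erbb3 was 2.43-fold lower. No ligand was measured as protein, so these are levels of receptor RNA only.

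Of 21 Wnt pathway genes, 8 were higher and 1 was lower. The ligand Wnt4 was at 401, 366, 308 and 294 CPM, 13.8-fold higher, and Wnt10a was at 21.7 ± 4.25 CPM, 18.7-fold higher. The secreted inhibitors of Wnt signals were also higher, with Sfrp1 at 706 ± 54.4 CPM (9.15-fold) and the Dickkopf family member Dkk3 at 135 ± 14.4 CPM (13.4-fold). Both ligands and inhibitors were therefore on the horizontal basal side of the comparison. Lgr6, a receptor for R-spondins, was at 49.5, 44.6, 38.3 and 57.3 CPM (7.53-fold), whereas Lgr5, its relative and a globose basal cell gene, and the Wnt target Axin2 were called in neither direction. The receptor Fzd3 was 4.12-fold lower.

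Among 22 secreted ligands and binding proteins, 12 were higher and 1 was lower. Hbegf, a ligand of Egfr, was at 320, 306, 289 and 303 CPM (13.9-fold). The chemokine Cxcl12 was at 122, 133, 160 and 157 CPM (24.2-fold), and the chemokines Ccl20 and Cxcl14 were 24.7- and 20.5-fold higher. The activin antagonist Fst was at 57.4 ± 12.4 CPM (35.8-fold), Vegfa at 158 ± 8.81 CPM (18.3-fold), and the bone morphogenetic protein genes Bmp4 and Bmp7 were 16.5- and 10.4-fold higher. Il33, an alarmin cytokine, was the exception, at 22.7 ± 1.80 CPM against 665 ± 33.6 CPM in the sustentacular gate, and was 10.0-fold lower than in other barcodes.

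**Figure D3:**
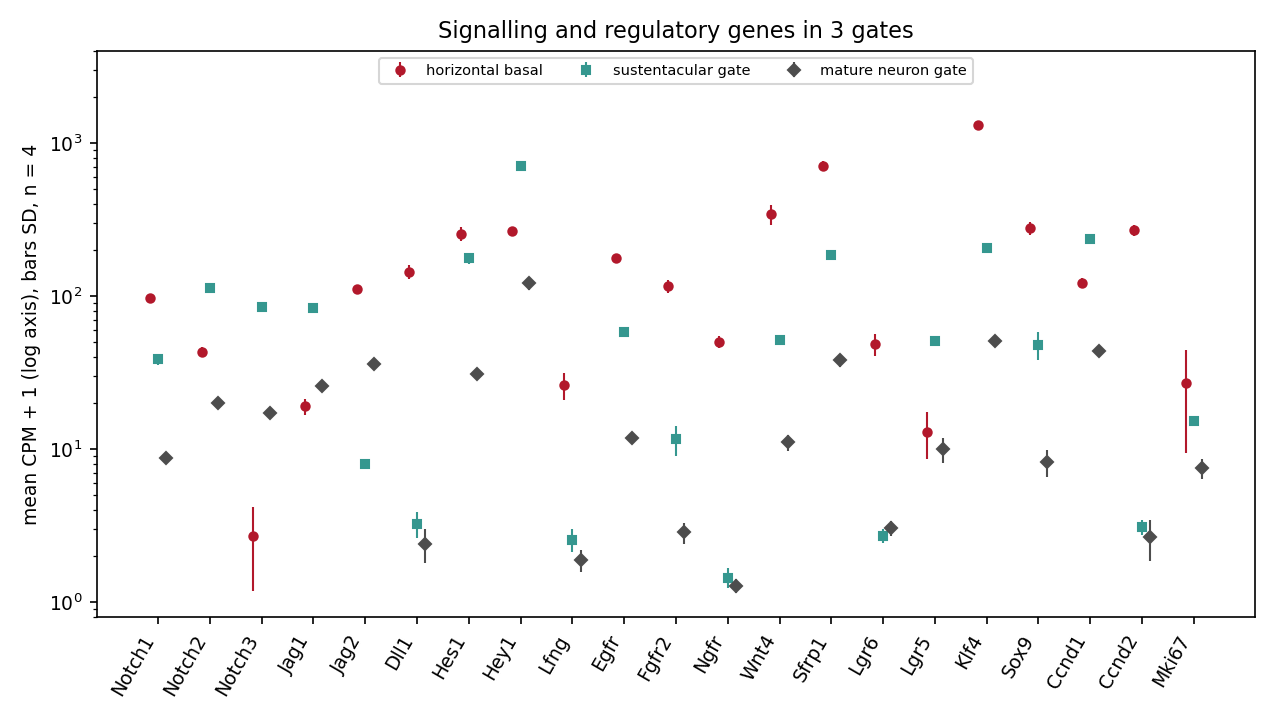
Mean CPM plus 1 (log axis) of signalling and regulatory genes in horizontal basal cells and in the sustentacular and mature neuron gates, with bars for the SD over 4 libraries. Without the added 1, Dll1 stands at 143 CPM in horizontal basal cells and at 2.27 in the sustentacular gate, and Notch3 at 1.70 in horizontal basal cells and at 84.1 in the sustentacular gate.

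Few members carried cell cycle transcripts. None of 18 cycling genes was called in either direction, and their median log2 ratio was -0.17. Mki67, a marker of dividing cells, was at 6.51, 43.6, 37.4 and 16.1 CPM against 27.3 ± 2.09 CPM in other barcodes, and the replication enzyme Top2a at 23.4 ± 18.1 CPM. Members with at least 2 UMIs of both numbered 1, 5, 5 and 1 in the 4 libraries, and a single barcode held 32.9 to 74.4% of a library's Mki67 UMIs. At least 3 cycling genes were detected in 135 of 1209 members (11.2%, exact 95% interval 9.45 to 13.1%), and after every barcode was thinned to 2000 UMIs the share was 1.05 to 2.29% per library. The sustentacular gate gave 0.962 to 1.63% by the same thinned measure.

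Of 13 genes that restrain the cell cycle or act at its start, 4 were higher and 1 was lower. Ccnd2, the D-type cyclin of early G1, was at 290, 240, 281 and 261 CPM, a log2 ratio of 5.64, with 4.41 ± 0.76 CPM in other barcodes. The growth arrest gene Gas1 was 4.59-fold higher and the antiproliferative Btg2 and Btg1 were 2.73- and 2.32-fold higher. Rb1 was 3.19-fold lower. Cdkn1a, Cdkn1b and Cdkn1c, inhibitors of cyclin-dependent kinases, had log2 ratios of 1.04, 0.95 and 1.19 without passing in every library.

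Genes of the wound-activated state of basal cells were mostly at the floor. Of 12, 4 passed the level filter, 2 were higher and 1 was lower. Emp1, an epithelial membrane protein, was at 223, 209, 101 and 181 CPM (26.5-fold), and the galectin Lgals7 was 9.14-fold higher. Dmkn was 7.46-fold lower. No UMI of Krt6b, Sprr1b or Stfa3 was found in any member. At least 3 of the 12 genes were detected in 23 of 1209 members (1.90%).

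Immediate early and heat shock genes were high, with 12 of 16 higher and none lower. Fos was at 6818, 6571, 6409 and 7256 CPM, 4.03-fold higher, and at 2968 ± 217 CPM in the sustentacular gate. Egr1 was 6.18-fold higher, Atf3 5.17-fold, and the heat shock genes Hspa1a, Hspa1b and Dnajb1 were 7.40-, 8.38- and 6.29-fold higher. In the mature neuron gate Fos was at 1054 ± 76.6 CPM.

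Interferon and antigen presentation genes were higher in 12 of 17 cases and lower in none. Ifitm3, an interferon-induced restriction factor, was at 1969, 2332, 1883 and 1988 CPM (19.9-fold), and the interferon regulatory factor Irf1 was at 836 ± 103 CPM (9.62-fold). These genes also varied between libraries. On the TMM scale of the sex model, the class I gene H2-K1 was at 591, 1134, 521 and 994 CPM and the class II invariant chain Cd74 at 379, 899, 488 and 750 CPM. Female 2 exceeded female 1 for 17 of 17 genes of the list, and male 2 exceeded male 1 for 17 of 17, where 49.8% and 49.1% of all 11138 genes did so. Cd74 was also higher in female 2 and male 2 outside the horizontal basal cells. It was at 273, 518, 198 and 428 CPM in other barcodes and at 90.7, 281, 58.9 and 275 CPM in the sustentacular gate. No label separates these libraries other than sex and number, and the cause was not tested. Cd74, H2-Aa, H2-Ab1, Ifit1 and Bst2 were not called against other barcodes.

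Ctsl, a lysosomal protease, was at 1289, 1257, 1347 and 1320 CPM, a log2 ratio of 3.45 to other barcodes. Tmprss2, Furin and Bsg, which encode membrane proteases and a surface glycoprotein, were called in neither direction.

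Genes at the other end of the profile were those of neurons and sustentacular cells. Omp and Cyp2g1, which the rule capped, were at 156 ± 3.69 and 111 ± 9.08 CPM against 4063 ± 160 and 5201 ± 477 CPM. Plekhb1, a neuronal gene outside the rule, was at 97.7, 90.5, 109 and 91.1 CPM against 2178 ± 58.3. In the sustentacular gate, where Omp was capped as well, Plekhb1 was at 122 CPM. The 7 mature neuron markers summed to 580 to 713 CPM in horizontal basal cells and to 13788 to 14844 in other barcodes, and all 7 were lower. Omp, which the rule capped, is among the 7 and in both sums.

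Markers of other cell types were uneven. Sustentacular markers summed to 9449 to 10705 CPM, close to the 11708 to 13100 CPM of other barcodes. Nearly all of the horizontal basal sum was Cbr2 (7232 ± 311 CPM) and Cyp2f2 (2596 ± 241 CPM), which encode drug-metabolizing enzymes. Cyp2g1, which the rule capped, is in both sums, at 111 against 5201 CPM. The immature neuron markers summed to 229 to 327 against 1434 to 1577. Immune markers summed to 29.2 to 184 against 238 to 384. Sox9 and Aqp5 made up most of the Bowman gland sum, 828 to 1100 CPM, with 7 UMIs of Sox10 in all members. The 5 genes listed as candidates of respiratory basal cells, Aqp3, Ngfr, Dlk2, Krt15 and Krt17, were all higher and summed to 6842 to 7067 CPM against 924 to 993. Whether some members came from neighbouring respiratory epithelium was not tested. Respiratory secretory and ciliated markers summed to 1095 to 8650 CPM, against 6591 to 9772 in other barcodes. The horizontal basal sum was driven by Bpifa1, an airway secretory transcript, at 2108, 7822, 550 and 6896 CPM. In other barcodes Bpifa1 was at 8588, 8212, 5845 and 6553 CPM, and it was called in neither direction. Among the members, a single barcode held 84.3% of the Bpifa1 UMIs in female 2 and 74.1% in male 2. The club cell gene Scgb1a1 had 0 UMIs.

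Variation among members was described by the variance over the mean of each gene, after thinning to 2000 UMIs, which left out 3 shallow members of 1209. Of 2745 genes, 60 (2.19%) had a ratio above 2 in all 4 libraries. The genes with the largest ratios included Cyp2f2 (6.19 to 6.99), Fos (5.84 to 7.67), the glutathione transferase Gstm1 (5.02 to 5.33), the calcium-binding S100a6 (4.92 to 7.16), Cbr2 (4.91 to 5.70) and Krt15 (4.68 to 6.39). Bpifa1 spanned 13.3 to 344, and a single barcode held up to 84.3% of its UMIs in a library. Cd74 ranged from 5.07 to 13.2 and the antimicrobial lectin Reg3g from 6.95 to 20.3. For Reg3g a single barcode held 24.0 to 54.2% of a library's UMIs.

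The variable genes were not independent of each other. Over the members of each library (244 to 414 thinned barcodes, sharing library and depth), Adh7 and S100a6 correlated positively, with r of 0.64 to 0.72, and S100a6 and Igfbp2 negatively, with r of -0.68 to -0.56. The stress genes Fos and Egr1 correlated at 0.62 to 0.70 and Krt5 with Krt14 at 0.10 to 0.26. Adh7 encodes an alcohol dehydrogenase that oxidizes retinol (chr3:138217760-138233382, plus strand) and was at 368, 357, 289 and 372 CPM over all members. It was then used to divide them, a choice made after these values were seen, so what follows is a description without a test.

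Members with at least 5 Adh7 UMIs numbered 94, 58, 50 and 63 (19.1 to 23.7% of a library's members), 265 in all. Another 754 had none (58.6 to 66.0%) and 190 had 1 to 4. Median depth was 8692 to 9222.5 UMIs in the Adh7-high members and 7496 to 8417 in the Adh7-zero members. Of 6832 genes with a mean of at least 20 CPM over the 8 sums, 125 were at least 2-fold higher in the Adh7-high members in all 4 libraries (1.83%) and 167 were at least 2-fold lower (2.44%), with 5 CPM added to both sides. Of all genes at least 2-fold different in both females, 125 of 158 higher and 167 of 230 lower were so in both males. Among the 20 of largest difference in each direction in the females, these were 19 of the higher and 20 of the lower. Adh7 was chosen with the male values seen, so the males are not an independent check.

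Lgr6, a receptor for R-spondins, and the calcium-binding S100a6 were higher in Adh7-high members. Lgr6 was at 172, 139, 159 and 178 CPM in Adh7-high members against 1.39, 0, 0 and 6.33 in Adh7-zero members, and S100a6 at 2400, 1944, 2621 and 3476 against 101, 91.9, 65.7 and 120. The 2 sets did not overlap for either gene. Krt15, listed as a candidate of respiratory basal cells, was at 781, 372, 364 and 1129 CPM against 99.8, 73.4, 56.6 and 73.9. In the same list Krt17 was lower, with means of 1250 against 2630 CPM. Aqp3 (3644 against 4537 CPM) and Dlk2 (179 against 206 CPM) were lower too. None of these lower candidates reached the 2-fold limit in every library. Of 18 growth factor and cytokine receptors, 17 passed the filter, 4 were higher in Adh7-high members (Il6ra 8.56-fold, Fgfr3 4.19-fold, Ngfr 2.76-fold and Fgfr2 2.37-fold) and 2 were lower (Fgfr1 and Ghr). Also higher were the endotoxin coreceptor Cd14 (17.6-fold), the transglutaminase Tgm2 (12.6-fold) and Id3 (4.64-fold). Of the 20 higher genes picked in females, the chitinase-like Chil4 alone missed the fold in the males, and 2036 of 2040 of its female 2 UMIs came from a single barcode.

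Of 22 secreted ligands, 16 passed the filter, 1 was higher in Adh7-high members (Cxcl16) and 4 were lower (Cxcl14, Cxcl12, Igfbp2 and Mdk). Igfbp2, which binds insulin-like growth factors, was at 2053, 2425, 1985 and 2247 CPM in Adh7-zero members and 368, 456, 352 and 224 in Adh7-high members. The steroid 5-alpha-reductase Srd5a2 was at 899, 971, 894 and 924 CPM against 117, 129, 159 and 80.2, and the adhesion molecule Nrcam at 446, 456, 548 and 459 against 40.1, 35.2, 56.1 and 24.8. No value of the Adh7-high members reached the Adh7-zero values for these 3 genes. The chemokines Cxcl14 and Cxcl12 were 12.6- and 5.27-fold lower in Adh7-high members, Car12 8.66-fold, and Gja1 and Ghr 2.99- and 3.19-fold. Pcp4 had no UMI in Adh7-high members and 27.3 to 40.1 CPM in Adh7-zero members.

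Every member of both sets held Krt5 and Trp63 because the rule required it. Krt14 (1850, 2214, 2271 and 1603 against 2329, 2007, 2000 and 1814 CPM), Itgb4 and Itga6 differed by less than the 2-fold limit. Of the hemidesmosome list, 12 genes passed the filter and none was called. Of all 6832 genes, 1.83% were called higher and 2.44% lower, so a list of 12 without a call says little. Krt5 was 1.47-fold lower in Adh7-high members (2532, 2563, 2511 and 2460 against 3828, 3904, 3607 and 3456 CPM) and Trp63 was 1.57-fold lower, which are below the limit but do not overlap between the sets. Markers of other types moved as follows: Cyp2f2 was at 5571 CPM in Adh7-high and 1310 in Adh7-zero members, Cyp2g1 at 78.9 and 122, the ciliated cell gene Foxj1 at 101 and 130, and Bpifa1 at 1479 to 27525 and 259 to 423. Reg3g, listed with the respiratory secretory markers, was at 1203 to 2510 CPM against 40.6 to 106, 24.0-fold higher. Over all members, a single barcode held 36.9, 54.2, 24.0 and 52.8% of the Reg3g UMIs of its library. The fibroblast marker Dcn was 7.65-fold higher and the sustentacular marker Ermn 4.74-fold lower. The other fibroblast markers were low in both sets. Col1a1, Col1a2, Lum and Pdgfra were at 10.3, 5.90, 0.676 and 0 CPM in Adh7-high members. In Adh7-zero members they were at 4.75, 3.41, 0 and 0.185 CPM. Scgb1a1 had no UMI in either. Whether Adh7-high members came from respiratory epithelium, and the part of admixed RNA in these differences, was not tested.

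**Figure D4:**
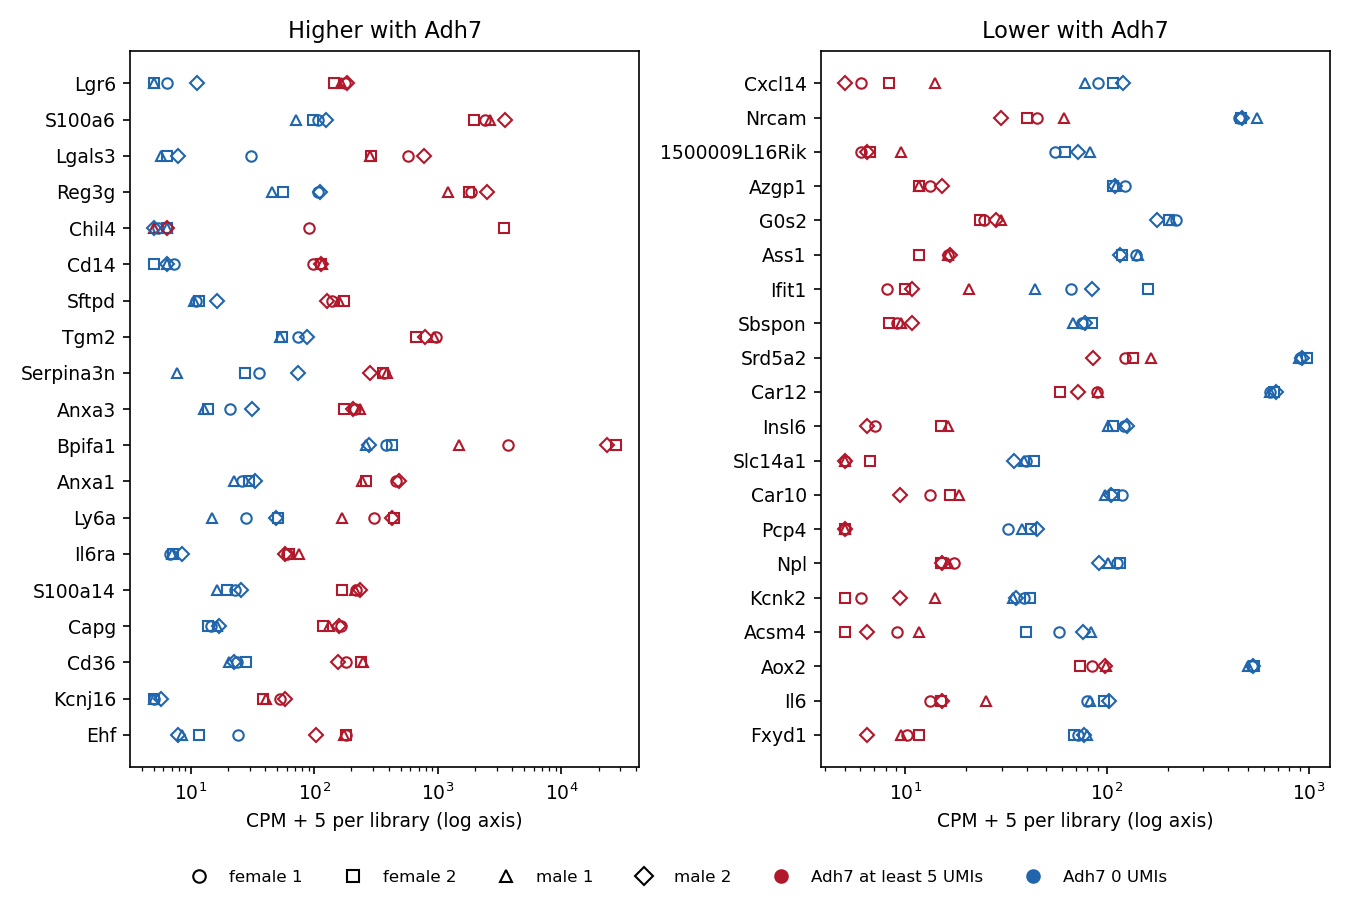
CPM plus 5 (log axis) in Adh7-high (red) and Adh7-zero (blue) horizontal basal cells, with 1 symbol per library, for genes among the 20 of largest difference in each direction as picked in the females. S100a6 lies at 1944 to 3476 CPM in Adh7-high and at 65.7 to 120 in Adh7-zero members before the addition, and Chil4 is high in the female Adh7-high sums only.

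Sex was compared with edgeR's quasi-likelihood test on the summed UMIs of horizontal basal cells, 2 female against 2 male libraries. Of 11138 genes tested, 5 were higher in males (0.0449%) and 1 was lower (0.00898%) at an adjusted p (Benjamini-Hochberg) under 0.05, and 504 had an unadjusted p under that limit. DESeq2 called 10 higher and 2 lower, and leaving out male 1 gave 42 higher and 10 lower by edgeR. Of the 5, 4 lie on the Y chromosome, and their UMIs were 0 in both female libraries: Eif2s3y had 73 and 92 in males, Ddx3y 79 and 67, Uty 26 and 18, and Kdm5d 17 and 23. These genes check the sex labels of all 4 libraries. No member of the gene lists passed the test, with a lowest adjusted p by edgeR of 0.592, for the heat shock gene Hspa1b. At an unadjusted p under that limit, 0 to 3 members of each list were found. With 2 libraries per sex, a test on simulated counts for 200 changed genes recovered 92% of 2-fold and 99% of 4-fold changes. The changed genes were drawn only from genes with higher counts, and the simulated spread was the one fitted to these same libraries. These shares therefore do not cover genes of low counts.

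Lcn2 was the gene lower in males. It encodes lipocalin-2, an antimicrobial protein that binds bacterial siderophores (ENSMUSG00000026822, chr2:32384633-32388252, minus strand). Its level was 351, 308, 167 and 194 CPM in female 1, female 2, male 1 and male 2 on the TMM scale, so both female values lay above both male values. In the same order, Lcn2 was detected in 42.2, 49.8, 35.1 and 35.9% of members. A single barcode held 21.4, 17.0, 8.64 and 6.54% of the Lcn2 UMIs of its library. The part of such barcodes in the difference was not tested. The log2 difference, male over female, was -0.87 (SE 0.11, edgeR adjusted p = 0.0201). The call was lost without female 1 (-0.77, adjusted p = 0.0892), among Adh7-zero members (-0.83, adjusted p = 0.0968) and with the stricter filter on low counts (-0.87, adjusted p = 0.0914). The difference from the sex effect in other barcodes was -0.73 (edgeR adjusted p = 0.261).

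Neurod1, a transcription factor of neuronal precursors (ENSMUSG00000034701, chr2:79452521-79456751, minus strand), was higher in male horizontal basal cells, with a log2 difference of 3.10 (SE 0.36, edgeR adjusted p = 0.0116). Its TMM-scaled level was 2.06, 2.70, 22.3 and 18.2 CPM. The UMIs were 8, 6, 48 and 43, and 38 of the 48 in male 1 came from a single barcode, while 27 of the 43 in male 2 lay in barcodes with a high doublet score. Without such barcodes the log2 difference was 2.56 (edgeR adjusted p = 0.917). In the test of whether the sex effect differed between horizontal basal cells and other barcodes, 1 of 16454 genes passed (0.00608%), and it was Neurod1, with a log2 difference of 3.48 (SE 0.29, edgeR adjusted p = 0.000121). Without the barcodes of high doublet score that value was 2.86 (adjusted p = 0.235).

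**Figure D5:**
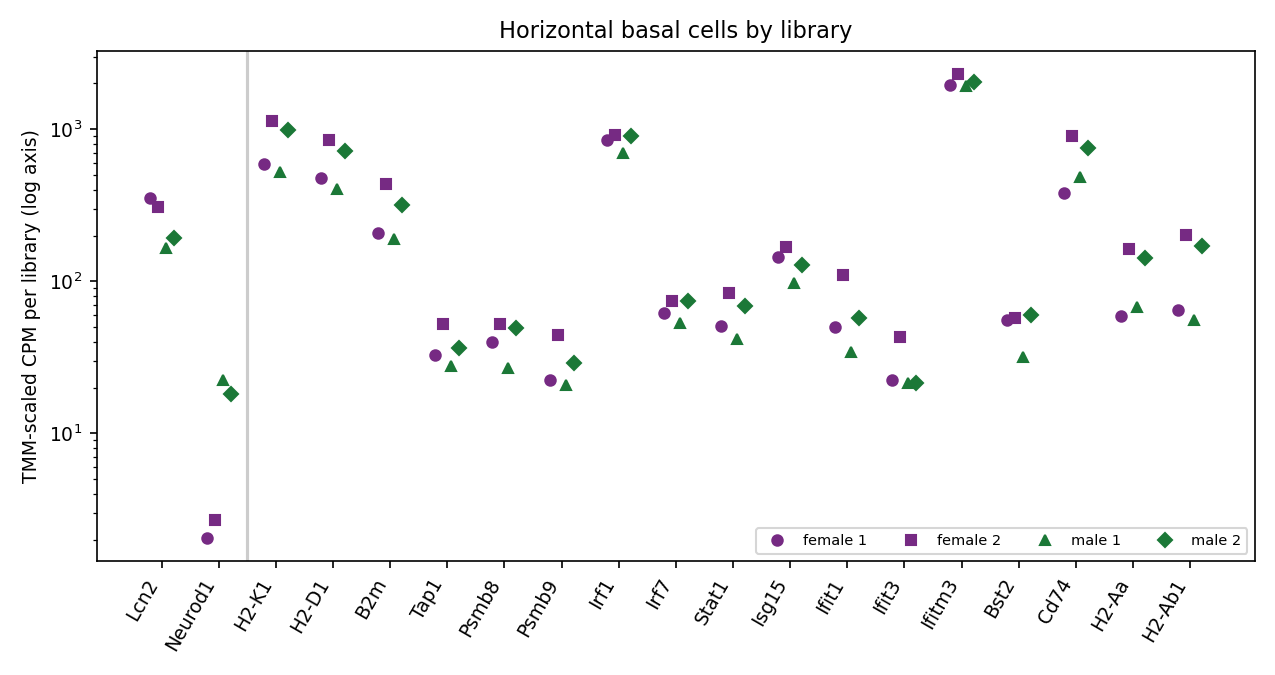
TMM-scaled CPM (log axis) in horizontal basal cells, 1 symbol per library, for Lcn2 and Neurod1, left of the grey line, and the 17 interferon and antigen presentation genes, right of it. Lcn2 lies at 351 and 308 CPM in females and at 167 and 194 in males, and H2-K1 is higher in female 2 and male 2 than in the other 2 libraries.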

How the data were processed

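The authors deposited raw UMI counts per gene and barcode for 4 libraries. They were made with Cell Ranger (5.0.1 and the build mm10 per the submitters' processing notes, 6.0.2 per the file headers), and barcode filtering before deposit is not given in the sources used here. All samples were grouped by sex from the labels. Of 41911 barcodes, 2196 with under 500 genes or over 10% mitochondrial UMIs were left out. Doublets were scored against simulated ones but not removed from the counts reported, other than through the Omp and Cyp2g1 caps. Counts were summed per library within each set of barcodes and expressed as CPM. The mature neuron gate held 20083 barcodes and the sustentacular gate 6240. Sex was tested on the sums with edgeR 4.0.16 (R 4.3.3, TMM, filterByExpr, quasi-likelihood, Benjamini-Hochberg over all genes tested). The difference of sex effects was tested as an interaction with the library as a block. DESeq2 1.42.0 was an alternative. TMM factors were 0.982 to 1.02. The sex test was checked on simulated counts, where 9 of 200 calls were false. Sums of different libraries differed by more than sampling (chi-square per gene 2.58 to 4.16), so none was a duplicate.

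Genes named were the 25 of largest lowest-library ratio and the 10 of smallest highest-library ratio. Also named were 15 of largest variation, the sex and interaction genes past the threshold, and list members. Adh7 and the genes named with it were chosen after their values were seen. The cells, the markers and the gene lists were chosen with earlier results of these data known. Gene positions are from GENCODE M21 (GRCm38). UMI counts are not scaled by gene length, so levels were compared within a gene. The other settings tried and their effects are in the closing section. A few genes and the results that need them are not reported here.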

Additional observations from a re-analysis of the deposited data

Results flagged for a closer look

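The sex effect on Neurod1 differed between horizontal basal cells and all other passing barcodes, by 3.48 on the log2 scale, male over female (SE 0.29, edgeR interaction test, adjusted p = 0.000121). Both male libraries were above both female libraries in horizontal basal cells, with 48 and 43 UMIs against 8 and 6. With the fullest barcode of each library set aside, the UMIs were 6, 4, 10 and 25 in female 1, female 2, male 1 and male 2. The part of single barcodes in the difference was not tested beyond these values and the fit without doublet-scored barcodes, 2.86 (adjusted p = 0.235).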

How the results depend on the processing

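The male minus female share was -1.28 to 0.271 percentage points when each library was left out, with the sign reversed without female replicate 1 (0.271). With a fold limit of 4, 593 genes were higher and 1075 lower in horizontal basal cells than in other barcodes, and 1459 were lower with the filter at 20 CPM. Genes higher in males numbered 8 with the depth-scaled gate, 2 without doublet-scored barcodes, 3 in Adh7-zero barcodes, 71 with no filter, 0 with the stricter filter (339 at an unadjusted p under 0.05 by edgeR), 10 by DESeq2 and 3 to 42 when a library was left out. Genes lower in males numbered 2 with stricter caps, 3 with the depth-scaled gate, 75 with no filter, 0 with the stricter filter, 2 by DESeq2 and 10 to 25 when a library was left out. Genes whose sex effect (log2, male over female) was more positive in horizontal basal cells than in other barcodes numbered 2 with the stricter gate. Their number was 3 with stricter caps, 2 with the depth-scaled gate and 0 without doublet-scored barcodes (600 at an unadjusted p under 0.05 by edgeR). It was 4 with a mitochondrial limit of 5%, 55 in Adh7-zero barcodes, 3 by DESeq2 and 19 to 42 when a library was left out. Genes with a more negative effect numbered 1 with stricter caps, 1 with the 5% limit and 26 in Adh7-zero barcodes. Their number was 1 by DESeq2 and 3 to 56 when a library was left out. Between Adh7 sets, 189 genes were higher with a filter at 5 CPM, and 51 were higher and 32 lower with a fold limit of 4. The settings on Adh7 were chosen after seeing the data, and the cause of these changes was not tested. Where 1 library was left out, its sex was left with a single library assumed to vary like the other sex.

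With the replicate number as a replicate block, 4 genes were higher and 4 lower in males. The labels give no meaning to the numbers, and the correlation of deviations between same-numbered libraries was 0.12 over 6155 genes, with only 2 pairs. Same-numbered libraries had the lowest chi-square per gene of the 6 pairs, 2.58 for female 2 and male 2 and 3.25 for female 1 and male 1, against 4.16 between females and 3.62 between males. Whether the number marks a shared batch was not tested. Of 231 gene ratios under 11 settings, 2415 of 2541 values stayed the same. For a called gene this meant the same call, and for an uncalled gene no call and a log2 ratio within its SD. Of the others, 66 were uncalled ratios that moved further and stayed uncalled. Comparing only with barcodes within the caps gave 95 of the others. No ratio changed sign while called. With 2 libraries per sex, differences much under 2-fold may have gone undetected, and so may larger ones in genes of low counts.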
